A study of Mus musculus with 3 samples.

Results

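The cyclins, cyclin-dependent kinases (CDKs) and DNA replication genes of the mouse retina at postnatal day 10 are described here from 3 wild-type samples. The genes were taken by name: probe sets with a single gene symbol for a cyclin of classes A to H, a CDK or CDK inhibitor, a CDC gene, a subunit of the replication machinery, a mitotic kinase or checkpoint protein, an E2F factor or a retinoblastoma family protein. Cdc42, a small GTPase, and 3 genes named after it (Cdc42ep4, Cdc42se1 and Cdc42se2) were left out. This gave 109 genes with 147 probe sets, of 8251 named genes on the array. Each sample was RNA from neural retinas pooled over 3 to 4 mice of mixed 129/SvEv and C57BL/6 descent, taken at 1 to 2 pm. The animals were wild-type littermates of Rp1-/- mice. The titles of pools 2 and 3 carry the word rp1 and that of pool 1 does not, while the description gives wild type for all 3, which was followed. The pools are numbered in accession order, so a number only names a pool, and the labels do not say whether pools shared mice. There is 1 group and no control, so no comparison between conditions and no p-value is given, and 3 arrays limit the precision of every value.

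A cell commits to division when D-type cyclins with CDK4 or CDK6, and then cyclin E with CDK2, inactivate the retinoblastoma (pocket) proteins and free E2F factors to switch on replication genes. Origin recognition and MCM proteins license the DNA, polymerases with the PCNA clamp copy it, and cyclin B with CDK1 and the Polo and Aurora kinases drive mitosis. Exit from the cycle rests on CDK inhibitors of the Cip/Kip (Cdkn1) and INK4 (Cdkn2) families and on the pocket proteins, and in the mouse retina it is nearly complete by the second postnatal week. In whole tissue, fewer cells of a type and less RNA per cell cannot be told apart.

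Signals are linear array intensities in the deposited units, with a single value for each probe set, the several short probes that report a transcript. Each gene is given by its probe set of highest mean signal. Because probe sets differ in how brightly they bind, levels of different genes were not compared with each other, only with background and between pools. Background on each array was the 90th percentile of 116 probe sets whose 94 genes belong to other tissues: signals of 383.5, 398.3 and 372.0 in pools 1, 2 and 3. Of these 94 genes, 9 (9.6%) exceeded the limits on all 3 arrays, so a signal above background does not by itself show expression. Each sample held retina, since all 13 measured rod genes exceeded background in every pool. Of 14 lens genes, 8 did so too, so the samples cannot be taken as neural retina alone. Lens genes differed widely between pools, with summed signals of 227755, 37195 and 424681 over 14 genes in pools 1, 2 and 3. The Actb control sets gave 3′ over 5′ ratios of 1.20, 1.44 and 1.69, and the Gapdh sets 0.95, 0.88 and 0.93.

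Of the 109 genes, 38 (34.9%) exceeded background on all 3 arrays, against 38.6% of all named genes, and 43 (39.4%) did so on none, against 47.2%. Genes with duties outside the division cycle made up much of the 38. Above background throughout were 9 of 12 members that fall in no cell cycle class, 6 of 10 kinases and cyclins of transcription and other processes, and 2 of 4 genes of the CDK5 group. The corresponding counts were 8 of 38 replication genes (21.1%), 6 of 22 mitosis genes, 4 of 9 cyclins and kinases of G1 and S phase, 3 of 10 cell-exit genes and 0 of 4 E2F factors. With background set at the 75th percentile of the same probe sets, 65 of the 109 genes passed it in every pool, against 55.8% of all named genes. Among the 65 were 19 of 38 replication and 5 of 10 cell-exit genes. At the 95th percentile 29 genes passed, among them 8 replication and 2 cell-exit genes, and the share of all named genes was not taken.

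**Figure D1:**
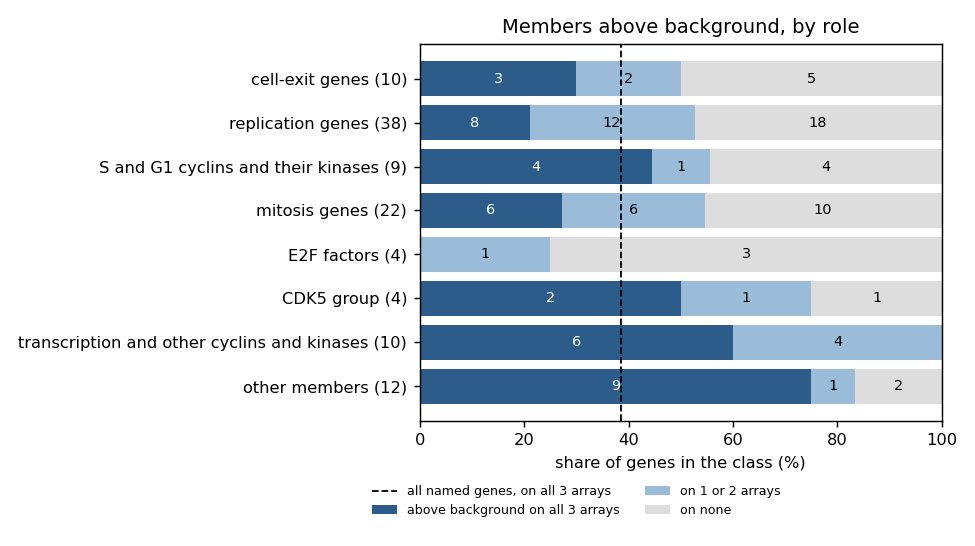
Share of the genes in each role class that exceeded background on all 3 arrays, on 1 or 2, or on none (horizontal axis, percent of the class; numbers in the bars are genes, those in brackets the class size). The dashed line marks the 38.6% of all named genes that were above background on all arrays. Replication genes (8 of 38) lie to the left of it and the transcription kinases (6 of 10) and other members (9 of 12) to the right.

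Cell-exit genes were represented above background by 3 CDK inhibitors. Cdkn1c (p57Kip2), a Cip/Kip inhibitor of CDKs, read 1027, 1408 and 1751 in pools 1, 2 and 3, a mean of 1395 ± 362 (SD, n = 3). Cdkn2d (p19Ink4d), which blocks CDK4 and CDK6, read 619, 769 and 777 in pools 1, 2 and 3, a mean of 722 ± 88.8 (SD, n = 3). Cdkn1a (p21Cip1), the p53-induced inhibitor, read 512, 554 and 771, a mean of 612 ± 139 (SD, n = 3). All 3 were lowest in pool 1 and highest in pool 3, except that Cdkn1a was lowest in pool 2 after scaling to the array median. The other Cdkn1a probe set was not above background in any pool and had the opposite order, at 201, 139 and 98.5.

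Another pair of exit genes exceeded background in pools 1 and 2 only. Cdkn2c (p18Ink4c) read 418, 474 and 325, and Rb1, the retinoblastoma protein itself, read 410, 456 and 298. On these sets both were lowest in pool 3, unlike the 3 inhibitors above. The other Rb1 set was below background in every pool and lowest in pool 1, at 32.8, 167 and 125. Without pool 3, 5 exit genes in place of 3 would count as above background throughout, though with fewer arrays to pass the count cannot fall. The remaining 5 were below background on every array. Cdkn1b (p27Kip1) read 88.7, 254 and 128 on a set with the _r_at suffix, which marks probes chosen under relaxed rules, and its other set read 17.7, 179 and 45.5. The tumour suppressor locus Cdkn2a read 160, 198 and 164, its neighbour Cdkn2b read 18.3, 30.1 and 21.2, and the pocket protein gene Rbl2 (p130) read 161, 210 and 147. Rbl1 (p107), a pocket protein also made in cycling cells, read 60, 201 and 203.

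Among the replication genes, 8 exceeded background throughout. Pcna, the sliding clamp, read 1156, 1176 and 814 in pools 1, 2 and 3. Mcm7, a subunit of the replicative helicase, read 810, 703 and 597, and Orc6, an origin recognition subunit, read 641, 631 and 506. Each was lowest in pool 3. The same held for 3 polymerase subunits: Pold2 of DNA polymerase delta read 1129, 1029 and 861, its partner Pold3 read 744, 885 and 585, and Pole3, a histone-fold subunit of polymerase epsilon that also serves chromatin remodelling, read 996, 1109 and 868. The only Pold2 set is an _r_at set. Rfc2, of the complex that loads the clamp, read 1204, 812 and 814, so pool 1 stood above the other pools, which were nearly equal. Rpa1, which coats single-stranded DNA in replication and in repair, had its highest signal in pool 3, at 1242, 1154 and 1902.

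On no array above background were 18 of the 38 replication genes (47.4%), against 47.2% of all named genes, and another 12 were on 1 or 2. Mcm5 exceeded it in pools 1 and 3 (578, 391 and 414) and Mcm2 in pool 1 (420, 316 and 226), whereas Mcm3 (282, 359 and 267), Mcm4 (241, 360 and 306) and Mcm6 (6, 73.7 and 73) did not in any pool. The 6 subunits act together as the MCM helicase, and their probe sets thus gave from 3 to 0 arrays above background. Of the other licensing genes, Orc4 and Orc5 exceeded background on 2 arrays and the kinase gene Cdc7 on 1. Orc1, Orc2, Cdc6 and Cdc45 did so on none, with signals from 75.5 to 332. Of the remaining polymerase and primase genes, Pola2 and Pold1 exceeded background in pool 1 only on their brighter sets. The other Pola2 set read 324, 102.5 and 378 and was above background in pool 3 only. Pola1, Pold4, Pole2, Pole4, Prim1 and Prim2 did so on no array, with signals from 12.1 to 346. Among loader, RPA and ligase genes, Rfc5 exceeded background on 2 arrays, and Rfc3, Rpa3 and Lig1 on 1. Rfc1, Rfc4 and Rpa2 did so on none. Lig1, the ligase that joins Okazaki fragments, read 79.3, 132.5 and 543, at least 1.42-fold higher in pool 3 than in pool 1. Enzymes of deoxynucleotide supply were dim too: Tk1 exceeded background in pool 3 alone (188, 149 and 386), and Rrm1 and Rrm2, subunits of ribonucleotide reductase, in no pool.

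**Figure D2:**
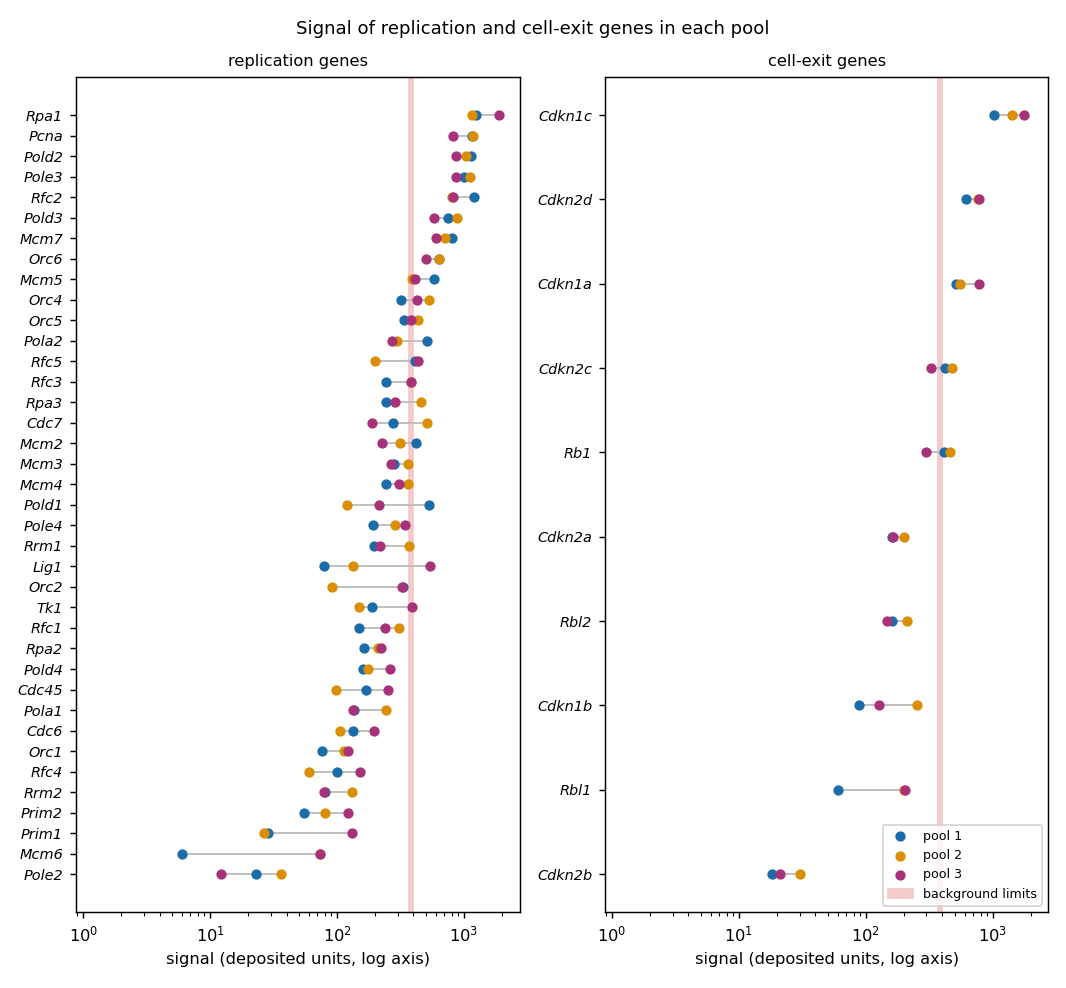
Signal of each replication gene (left) and cell-exit gene (right) in pools 1, 2 and 3 (horizontal log axis, deposited units), ordered by mean, with the range of the 3 background limits as a band. Rpa1, Pcna, Pold2, Pole3, Rfc2, Pold3, Mcm7 and Orc6, and on the right Cdkn1c, Cdkn2d and Cdkn1a, lie to the right of the band in every pool.

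Because E2F factors act through short promoter motifs, the letters of the promoters were set beside the signals. RefSeq windows of the GRCm38.p6 build, from 250 bases before to 50 after each start, were found for 92 of the 109 genes. The E2F motif was searched as TTTCCCGC, TTTGGCGC, TTTCGCGC or TTTGCCGC on either strand, where spellings may overlap. It occurred in 13 of 35 replication genes (37.1%), 2 of 8 exit genes (Cdkn2a and Rbl1) and 2 of 19 mitosis genes. The share was 4.32% of the 6576 named array genes with a window, and 2.60% of all 27025 genes of the table. Median GC content was 63% for replication genes, 61% for array genes and 53.3% for all genes. The 5 stretches below, each 81 bases and wholly upstream of the start, are shown because they hold the motif in licensing, helicase and polymerase genes; the motif is in capitals and the sequences run 5′ to 3′ along the gene's strand.
Mcm5 (chr8:75109321-75109401, plus strand): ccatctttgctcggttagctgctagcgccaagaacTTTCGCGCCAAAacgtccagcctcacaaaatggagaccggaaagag
Mcm6 (chr1:128359740-128359820, minus strand): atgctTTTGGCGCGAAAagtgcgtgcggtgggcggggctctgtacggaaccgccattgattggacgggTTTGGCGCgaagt
Mcm7 (chr5:138172005-138172085, minus strand): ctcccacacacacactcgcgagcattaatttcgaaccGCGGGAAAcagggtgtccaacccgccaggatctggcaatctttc
Cdc6 (chr11:98907976-98908056, plus strand): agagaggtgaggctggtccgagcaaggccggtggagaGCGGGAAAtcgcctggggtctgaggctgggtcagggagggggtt
Pola1 (chrX:93632250-93632330, minus strand): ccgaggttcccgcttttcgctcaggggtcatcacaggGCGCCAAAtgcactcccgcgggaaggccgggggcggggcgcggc
Mcm5 and Mcm6 hold the same 12 bases, TTTCGCGCCAAA read on opposite strands, in which a pair of overlapping motifs meet. This run or its reverse complement occurred in 4 of 32851 windows. Above background on all arrays were 2 of the 13 replication genes with the motif (Mcm7 and Pold3) and 5 of the 22 without it (Orc6, Pcna, Pold2, Pole3 and Rpa1). This split was not taken over all named genes, of which 38.6% were above background on all arrays.

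Set against each other over all their measured genes, the exit and replication lists had their highest median in the same pool. Each gene's log2 deviation from its own 3-pool mean was taken, and over the 10 exit genes its median was -0.22, 0.25 and -0.09 in pools 1, 2 and 3. For the 38 replication genes it was -0.14, 0.10 and 0.02, so that exit minus replication came to -0.08, 0.15 and -0.11. Without pool 2 the value of pool 3 changed sign, to 0.08. The 94 genes of other tissues, 76 of them below background throughout, gave -0.16, 0.25 and -0.05, close to the exit list, in which 5 of 10 genes were below background throughout. Over all named genes these medians were -0.03, 0.05 and 0.00.

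Restricted to genes above background on average, the median deviation of the 5 exit genes was -0.21, 0.10 and 0.11 in pools 1, 2 and 3, and that of the 10 replication genes was 0.14, 0.07 and -0.20. Exit minus replication was then -0.35, 0.03 and 0.32. The exit genes were divided: 3 of 5 (Cdkn1c, Cdkn2d and Cdkn1a) were highest in pool 3, against 32.6% of the 3785 named genes above background on average, and the other two (Cdkn2c and Rb1) were lowest there. From pool 1 to pool 3 Cdkn1c differed by 0.77, Cdkn1a by 0.59, Cdkn2d by 0.33, Cdkn2c by -0.36 and Rb1 by -0.46 on the log2 scale. Of the 10 replication genes, 8 were lower in pool 3 than in pool 1, with differences from -0.20 (Pole3) to -0.57 (Rfc2), against 53.4% of those named genes. Lowest in pool 3 were 6 of the 10, against 36.1%. Rpa1 and Orc4 were higher in pool 3 than in pool 1, by 0.61 and 0.42. These signs held after scaling to the median and after quantile normalization. Mcm5 was among the 8 on its brighter set. Its other set, below background in every pool, was higher in pool 3 than in pool 1 (62.5, 346.5 and 305). With 5 and 10 genes, and with genes that are not replicates, the counts describe these arrays only.

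Some other markers moved with the pools. Rod genes had a median deviation of -0.23, -0.04 and 0.37 and summed signals of 94490, 106537 and 157477, and no rod gene was below background. Of the 13, 9 were highest in pool 3, against 2769 of all 8251 named genes, while Crx, Nrl and Prph2 were lowest there. Of 14 lens genes, 13 were highest in pool 3 and 13 lowest in pool 2. Summed signals of 16 retinal progenitor genes were 10538, 9962 and 9378. Of the 9 progenitor genes above background on average, 5 were lowest in pool 3, but their median difference from pool 1 was -0.05, near the -0.04 of all named genes. Among the progenitor genes Notch1 read 784.5, 808 and 248, whereas Pax6 (1633, 1757 and 1823) and Id3 (896, 831 and 1116) were highest in pool 3. Of 14 endothelial and mural genes, which mark growing vessels, 10 were highest in pool 3, with summed signals of 3398, 3187 and 5019. Of the 14, 9 were below background on every array, and Kdr alone was above it on all arrays. Müller glia and astrocyte genes summed to 21273, 20177 and 30928, with 6 of 11 highest in pool 3 and 3, among them Glul (1040, 1492 and 785), lowest there. All 6 red blood cell genes were lowest in pool 2, with sums of 22298, 4729 and 15375, but 4 of them were below background on every array. Microglia and leukocyte genes summed to 3908, 4338 and 4242, with 14 of 20 below background on every array. Of 7 genes of pigment epithelium and melanocytes, Dct and Pmel were above background on average and both were highest in pool 3, and the sums were 1196, 1762 and 1990. The Actb end ratio, too, was smallest in pool 1 and largest in pool 3. No marker was listed at 0. The part of these in the difference between exit and replication genes was not tested.

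**Figure D3:**
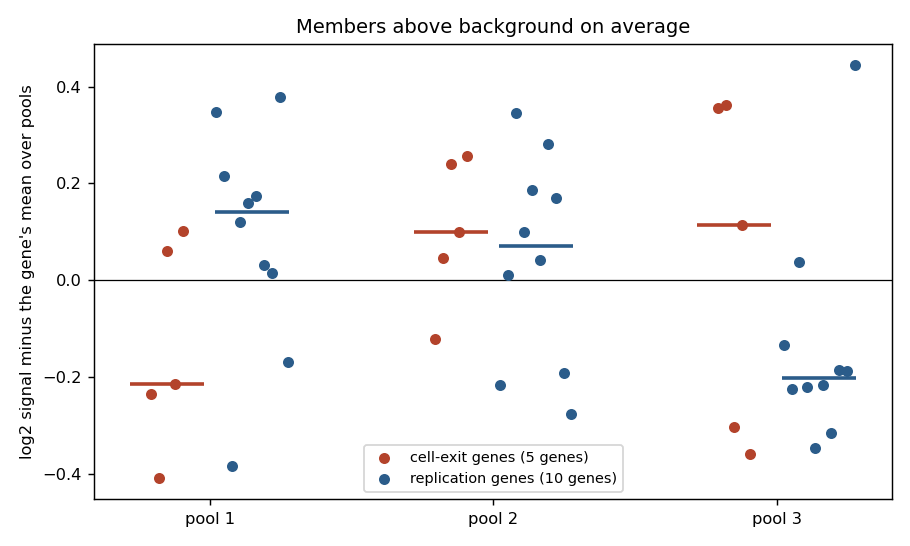
Log2 signal minus the gene's own mean over the 3 pools (vertical axis) for the 5 cell-exit and 10 replication genes above background on average; each point is 1 gene and each bar the median of its list. The exit medians are -0.21, 0.10 and 0.11 in pools 1, 2 and 3, with 3 points above 0 and 2 below in pool 3, and the replication medians are 0.14, 0.07 and -0.20, with Rpa1 the replication point at the top in pool 3.

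Proliferation genes outside the named set were mostly dim. Of 45 measured genes of a list of further replication and mitosis genes, 7 (15.6%) exceeded background in every pool, against 38.6% of all named genes, and 34 (75.6%) in no pool, against 47.2%. Of the 9 above background on average, 6 were lower in pool 3 than in pool 1, against 53.4%, and 5 were lowest in pool 3, against 36.1%. Those 5 are given next. Dnmt1, the maintenance DNA methyltransferase, read 1838, 1589 and 1374, and Ezh2, a histone methyltransferase of progenitors, read 924, 755 and 535. Ung, a uracil glycosylase, read 1055, 1025 and 664, and the condensin gene Smc4 read 600, 734 and 520. Stmn1, a microtubule regulator also made in young neurons, read 8123, 7806 and 5748. The other 3 of the 9 that were not lower in pool 3 than in pool 1 were Foxm1 (531, 268.5 and 982), Tmpo (1325, 1618 and 1621) and Cks1b (394, 490 and 395).

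Of 9 cyclins and kinases of G1 and S phase, 4 exceeded background throughout. Cdk4, the partner of D cyclins, read 2356, 2448 and 1684 on its brighter set and 498, 676 and 461 on the other, both lowest in pool 3 and both above background throughout. Ccnd1, the main D cyclin of the retina, read 1174, 768 and 718, but its other set read 351, 350 and 400 and was highest in pool 3, so the pools cannot be ordered for this gene. Ccne1, which drives entry into S phase, read 647, 399.5 and 622, in pool 2 just above the limit of 398.3. Ccna2, the S and G2 cyclin, was close between pools at 502, 563 and 603, a mean of 556 ± 50.6 (SD, n = 3). Ccnd3 exceeded background in pools 1 and 3 (772 and 625) and not in pool 2 (181), where it was at least 1.94-fold below pool 1, the widest range among these genes above background on average. Ccnd2 (26.2, 62.1 and 38.4), Ccna1, Ccne2 and Cdk2 (145, 181 and 283) stayed below background throughout.

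Of the 22 mitosis genes, 6 exceeded background throughout. Bub3, a checkpoint protein, read 1691, 1548 and 2017. Of the anaphase-promoting complex, a ubiquitin ligase that is also active in neurons, Cdc16 read 1190, 1244 and 840, Cdc23 read 607, 507 and 488, and Cdc26 read 846, 544 and 664. Of these 3 subunits Cdc16 was lowest in pool 3, and Cdc23 and Cdc26 were highest in pool 1, in each scaling tried. The stress-responsive Polo kinase Plk2 read 1113, 923 and 1081. Plk3, another such kinase, read 6766, 7723 and 10265 on its only set, an _r_at set. By contrast Mki67, the Ki-67 antigen of cycling cells, read 146, 180 and 235 on its brighter set, an _r_at set. Its other set ran the opposite way, at 126, 34.6 and 29.8. Top2a, the topoisomerase of dividing cells, read 119, 23.7 and 8.4, and Cdk1, the mitotic kinase, read 60.3, 114 and 43.9. All of these values were below background. Also below it in every pool were Aurka, Aurkb, Bub1, Cdc25c, Mad2l1, Plk4 and Cdkn3, a phosphatase named with the inhibitors but made in dividing cells. Ccnb1 was not among the genes named here.

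Several mitosis genes exceeded background in part. Ccnb2, a mitotic cyclin, did so in pools 1 and 2 (519, 403 and 372), Ccnf in the same pools (427, 457 and 319), Mad2l1bp in pools 2 and 3, and Cdc20, an activator of the anaphase-promoting complex, in pool 3 only (304, 315 and 389). Plk1, the Polo kinase of mitosis, read 569, 257 and 937, at least 2.35-fold higher in pool 3 than in pool 2. Of its other sets, one had the same order below background in every pool (140.5, 77.4 and 228), while one was above background in pool 2 only and highest there (252, 515 and 311), so the sets disagree on the order of the pools. Cdc25a, the phosphatase that activates CDKs, read 414, 657 and 218, at least 1.77-fold higher in pool 2 than in pool 3, while its other set was below background in every pool, at most 31.5.

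**Figure D4:**
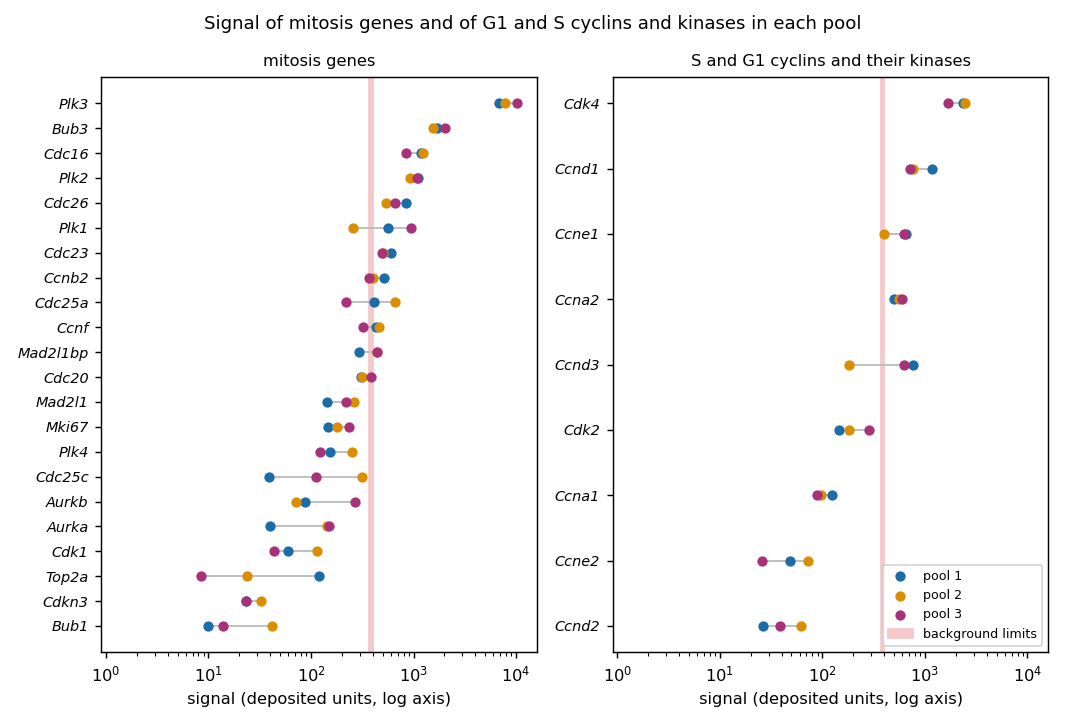
Signal of mitosis genes (left) and of the cyclins and kinases of G1 and S phase (right) in pools 1, 2 and 3 (horizontal log axis, deposited units), ordered by mean, with the background limits as a band. Top2a, Cdk1, Bub1 and Mki67 lie to the left of the band in all pools, and Plk3, Bub3, Cdk4 and Ccnd1 to the right.

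The CHR motif, TTTGAA on either strand, through which genes of G2 and mitosis are repressed in resting cells, was found in 10 of 19 mitosis genes (52.6%), 4 of 35 replication genes (11.4%) and 2 of 8 exit genes, against 15.5% of array genes and 20.2% of all genes. The mitosis genes with it were Aurka, Bub3, Ccnb2, Ccnf, Cdc20, Cdk1, Cdkn3, Mki67, Plk1 and Top2a. Of these, 1 (Bub3) was above background on all arrays, and of the 9 without it 4 (Cdc16, Cdc26, Plk2 and Plk3) were. This split was not taken over all named genes, of which 38.6% were above background on all arrays. The 4 are subunits of the anaphase-promoting complex and stress-responsive kinases, so motif and role cannot be told apart here. Bub3 also holds the motif upstream but is not among the stretches shown. Shown next are stretches of 81 bases, again upstream, from genes of mitosis that were dim in every pool (Cdk1 and Mki67) or in part (Ccnf), with the motif in capitals.
Cdk1 (chr10:69352913-69352993, minus strand): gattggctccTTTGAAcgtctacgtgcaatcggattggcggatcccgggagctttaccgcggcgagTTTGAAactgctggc
Mki67 (chr7:135716444-135716524, minus strand): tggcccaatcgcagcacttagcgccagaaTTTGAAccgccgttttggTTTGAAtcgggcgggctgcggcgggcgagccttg
Ccnf (chr17:24251497-24251577, minus strand): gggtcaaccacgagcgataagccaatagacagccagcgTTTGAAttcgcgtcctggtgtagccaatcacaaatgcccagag
A match to these letters is a description of the window and not a shown binding site.

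**Figure D5:**
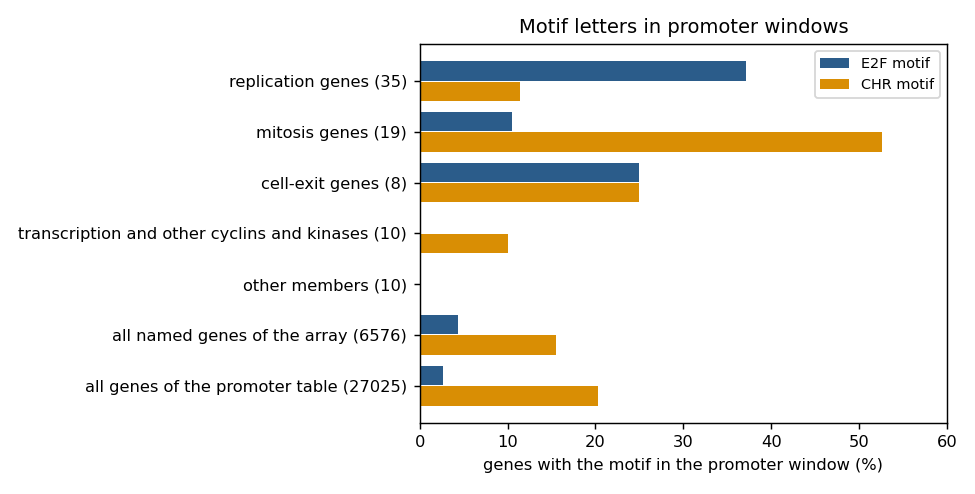
Share of genes (horizontal axis, percent; number of genes with a window in brackets) whose RefSeq promoter window holds the E2F or the CHR motif. The E2F bar is longest for replication genes (37.1%) and the CHR bar for mitosis genes (52.6%), against 4.32% and 15.5% of the named array genes.

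The E2F factors were hardly measured. E2f5, a repressive family member bound by pocket proteins, exceeded background in pool 2 alone (324, 460 and 248). E2f1, E2f3 and E2f8 were below it throughout, with signals from 36.1 to 212. No level above background was thus obtained for E2f1 or E2f3, the activators that switch on replication genes.

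The CDK5 group held the member with the smallest spread of the 52 above background on average, Cdk5r1. Cdk5, which acts in neurons rather than in the cell cycle, read 1460, 1313 and 1430, and Cdk5r1 (p35), its activator, read 395, 407 and 420, with SDs of 0.08 and 0.04 on the log2 scale. Cdk5r1 lay only 1.03, 1.02 and 1.13 times above the background limits, so its small spread was measured near background. Cdk5r2 (p39) was not above background, and Cdk5rap3 read 629, 291 and 614. Ccng2, a cyclin of growth arrest, read 1347, 1450 and 1473. Cdk9, which releases paused RNA polymerase, read 1172, 922 and 902, and Cdk8, of the Mediator complex, read 1155, 1099 and 604. Cdk8 stood apart in pool 3, while the pools lay close together for Ccng2. Cdk16 read 1280, 1503 and 950 and Cdk11b, a kinase linked to splicing, 782, 567 and 492. Cdk14, a kinase of the cyclin Y group, read 712, 881 and 1503, a 2.11-fold range with pool 3 highest. Ccnc, Cdk18 and Ccng1 were above background on 2 arrays and Cdk7 on 1.

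The 12 other members matched the naming rule without belonging to a cell cycle class. Top2b, the topoisomerase of differentiated cells, read 856, 1207 and 963, above background in every pool where Top2a was not in any. Cdc37, a co-chaperone of Hsp90, read 1792, 1295 and 1640, and Cdc123, a translation factor chaperone, read 1073, 929 and 1127. Neither of the last pair was lowest in pool 3. The ubiquitin-conjugating enzyme Cdc34 read 1042, 924 and 731, the splicing factor Cdc5l 735, 767 and 915, and the export factor Mcm3ap 475, 420 and 514. The CDK2-associated proteins Cdk2ap1 and Cdk2ap2 had opposite extremes, lowest and highest in pool 3, at 1518, 1663 and 1068 and at 1492, 1834 and 2376. Cdkn2aipnl exceeded background in pools 1 and 3 (505, 383 and 374), and Cdc73 and Rrm2b in none. Tyms-ps, a pseudogene of thymidylate synthase, read 615, 476 and 1097 on an _r_at set. Its probes can share signal with Tyms, named with it on 2 further sets of several symbols that were left out, so this value is uncertain.

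For the 52 members whose mean exceeded background, the log2 SD had a median of 0.30, against 0.26 for the 3785 named genes that did so. Of the 52, 6 spanned more than 1 log2 unit (a doubling), namely Ccnd3, Plk1, Cdc25a, Cdk5rap3, Cdk14 and Tyms-ps, against 11.3% of those named genes. Without pool 2, 1 gene had such a range, and without pool 3 the count was 3. The range of a gene over fewer pools cannot be wider, so a fall is partly built in. The share of all named genes with a pool left out was not taken. Of the 10 replication genes among the 52, 0 did. A check within genes was possible for the 34 members with several probe sets. For 11 of them the representative set was above background throughout, and Cdk4 alone had another set that was too. In 7 of the 11 no other set exceeded background in any pool, so the values of Bub3, Cdc23, Cdc34, Cdk14, Cdkn1a, Pole3 and Tyms-ps rest on 1 of their sets. As to the order of the pools, another set repeated that of the representative set in only 11 of the 34 members. In the rest none did.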

How the data were processed

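Total RNA from 3 retina pools was hybridised to Affymetrix U74Av2 arrays, per the labels. The authors deposited 1 intensity per probe set (12422 without 66 controls), and the sources used here do not give how it was condensed and scaled. Means trimmed by 2% at each end were 499.9 on every array and lay within the 5% set for using the values as deposited. Gene symbols came from the platform annotation of GEO, and updating them through a RefSeq table (GRCm38.p6) changed none. There were 10833 probe sets with 1 symbol, 396 with several (left out, 3 of them of genes of this set) and 1193 with none. Signals below 1 were set to 1 before log2, and SDs are over the 3 pools. Computation used Python 3.11.15, pandas 2.3.3 and numpy 2.4.6, and the shift and count functions were tested on simulated data. Values are given in each pool for genes above background on all arrays, for every exit gene and for set anchors of the cycle. They are also given for genes with a range over 1 log2 unit among those above background on average. Dimmer genes with such a range were not all given. Members, lists and tests were chosen with earlier results of these data known. Alternatives covered scaling, probe set choice, background limit, signal floor and each pool left out.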

Additional observations from a re-analysis of the deposited data

How the results depend on the processing

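Scaling to the median, quantile normalization and updated symbols moved no count of genes above background and no median SD beyond 1.5 times. The exit minus replication shift kept its sign under them and moved by less than the spread between pools, but under quantile normalization it shrank to -0.0498 in pool 1 and -0.0639 in pool 3. In pool 1 it was -0.226 with averaged probe sets and -0.021 with signals below 50 set to 50. With background at the 75th percentile, 65 members, 5 exit genes and 19 replication genes were above it on all arrays. At the 95th percentile these counts were 29, 2 and 8, and with averaged probe sets 31, 2 and 7. With sets of the plain _at suffix only they were 35, 3 and 7. Members with a range over 1 log2 unit numbered 13 at the 75th percentile, 3 at the 95th and 1 with averaged probe sets. With a pool left out that number was 1 to 5, but the range of a gene over fewer pools cannot be wider. For all named genes, only the share above background at the 75th percentile was taken under these alternatives (55.8%). The other changes in count thus cannot be called particular to the members. Leaving out a pool gave 3 to 5 exit genes above background and a median SD of 0.188 to 0.29, the lowest SD and the most exit genes without pool 3. With fewer arrays to pass, the count of exit genes could only stay or rise. The exit minus replication shift of pool 3 ran from -0.122 without pool 1 to 0.0784 without pool 2. It was 0.316 with genes above background on average only, where that of pool 1 was -0.354, so the sign in pool 3 depends on whether dim genes are counted. The E2F motif was in 8 replication genes (22.9% of those with a window) when only the 250 bases before the start were read. The share was then 3.63% of named array genes and 2.16% of all genes with a window. Of 468 values of mean log2 signal for 59 named genes under these settings, 21 moved by over 1 SD, 17 of them with averaged probe sets. The SD was that of the gene over the pools, and leaving out a pool cannot shift a mean by so much. Averaging cannot move a gene with a single set. The count of 21 is therefore no measure of stability. The cause of these changes was not tested. No paired analysis was possible because all samples form 1 group.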
